A study of Rattus norvegicus with 6 samples.

Results

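The adhesion receptors described here are 9 genes of the deposited gene table, taken by name from 40154 genes: the leukocyte adhesion molecules Icam1, Icam2 and Vcam1, the cadherins Cdh2 and Cdh11, the hyaluronan receptor Cd44, the checkpoint ligand Cd274, and the immunoglobulin-family adhesion molecules Alcam and Ncam1. All 9 had enough reads to be tested. They were measured by sequencing of poly(A)-selected RNA from cultured atrial fibroblasts of the rat, with 3 libraries of cells that received the negative-control siRNA (si-NC) and 3 of cells that received siRNA to GPD1L (si-GPD1L), an enzyme related to glycerol-3-phosphate dehydrogenase. The cells of both groups came from Sprague-Dawley rats aged 1 to 3 days, were separated from myocytes because they attach to the dish faster, were grown in medium with 10% serum, and were collected 24 h after transfection. The labels give both groups the same treatment entry, "Atrial differentiation", without explaining it. No untransfected group is part of these libraries, so the effect of transfection itself cannot be told apart from what both groups share. Whether each library is a separate culture, or whether the number in an si-GPD1L label marks a replicate or a different siRNA, is not stated, and p-values then measure the spread between these libraries only.

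Cell adhesion receptors are membrane proteins that hold a cell to its neighbours, to the matrix or to passing leukocytes. Icam1 and Vcam1 carry immunoglobulin domains and are bound by integrins on leukocytes, and inflammatory signals acting through NF-kB and interferon signals acting through STAT and IRF factors are textbook inducers of both. Cadherins bind their own kind on the next cell and link through catenins to actin, and N-cadherin (Cdh2) and cadherin-11 (Cdh11) are the usual cadherins of mesenchymal cells. Cd274, known as PD-L1, binds an inhibitory receptor of T cells and is raised by interferons in many cell types.

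The transcription start regions of the inducible members Icam1, Vcam1 and Cd274 are shown because these genes share textbook inducers, and their values are given separately further on. The RefSeq promoter table for the rat (build GRCr8) holds 5 of the 9 members. For each of the 3 genes the 250 bases before its start in that table are printed 5′ to 3′ on the strand of the gene. Capitals mark matches, on either strand, to a motif of NF-kB type (GGNNTTTCC), of interferon-response type (GAAANNGAAA) or of STAT type (TTCNNNGAA), motifs that were chosen after the sequences were seen.
Icam1: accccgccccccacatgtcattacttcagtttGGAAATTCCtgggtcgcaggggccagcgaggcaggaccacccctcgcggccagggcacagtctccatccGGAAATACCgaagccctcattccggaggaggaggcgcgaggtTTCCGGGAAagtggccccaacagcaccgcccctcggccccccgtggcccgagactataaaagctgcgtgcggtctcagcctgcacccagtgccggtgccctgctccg
Vcam1: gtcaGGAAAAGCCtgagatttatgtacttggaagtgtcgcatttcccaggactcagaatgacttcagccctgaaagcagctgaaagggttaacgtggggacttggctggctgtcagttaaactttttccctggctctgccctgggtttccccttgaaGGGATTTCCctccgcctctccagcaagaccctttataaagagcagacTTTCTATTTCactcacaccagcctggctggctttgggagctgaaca
Cd274: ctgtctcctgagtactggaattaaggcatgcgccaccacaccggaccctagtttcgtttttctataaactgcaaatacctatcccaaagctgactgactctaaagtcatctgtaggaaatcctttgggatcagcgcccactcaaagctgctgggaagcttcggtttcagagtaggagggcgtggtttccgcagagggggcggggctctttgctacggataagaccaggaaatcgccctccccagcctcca

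In GRCr8 the Icam1 stretch is chr8:27829595-27829844 on the plus strand, the Vcam1 stretch is chr2:206742784-206743033 on the minus strand and the Cd274 stretch is chr1:236529982-236530231 on the plus strand. Icam1 held 2 matches of NF-kB type and 1 of STAT type, and Vcam1 held 2 of NF-kB type and 1 of interferon-response type. No match lay in the Cd274 window, nor in those of Cd44 and Alcam. Over all 33469 promoters of the table, cut to the same length, 5.19% held a match of NF-kB type, 3.41% one of interferon-response type and 7.67% one of STAT type. A match is a run of letters and was not tested for binding.

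The libraries held between 16892255 and 20149732 counted reads, where a gene with 0 counts could have had up to 3. No 2 libraries of the same group agreed within counting error (chi-square per degree of freedom 8.35 to 27.4 for si-NC pairs, 3.89 to 5.81 for si-GPD1L pairs), so all 6 were kept as separate samples. The si-NC pairs with replicate 1 were the least alike (19.7 with replicate 2, 27.4 with replicate 3), against 8.35 for replicates 2 and 3. The target Gpd1l had raw counts of 265, 314 and 321 in si-NC and of 202, 229 and 303 in si-GPD1L, which overlap. Its log2 fold change was -0.31 (standard error 0.15), with an adjusted p = 0.234 by the quasi-likelihood test of edgeR. By an exact permutation test the two-sided p = 0.20, and 3 libraries against 3 cannot go below 0.10. Only si-GPD1L replicate 3 lay within the si-NC range. With 1 library left out the log2 fold change ran from -0.50 to -0.21 (adjusted p from 0.0604 to 0.579 by edgeR). The study reports that siRNAs silenced GPD1L in atrial fibroblasts. A fall of the target is therefore not shown in these libraries, and si-GPD1L stands below for the libraries labelled so. All 14 listed fibroblast markers were tested, with a median log2 fold change of -0.080. Lum, Dcn and Fbln1 were called lower in si-GPD1L (adjusted p under 0.05), as were 2.33% of all genes, and none was called higher. Only 3 of the 14 were above 0 on the log2 scale. These were Col1a1, Col1a2 and Fn1, at 0.25, 0.21 and 0.31 (adjusted p = 0.219, 0.137 and 0.135 by edgeR), named after their values were seen. Their groups did not overlap, which held for 29.0% of all genes.

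The level per gene length (TPM) is a count divided by the length given for the gene and scaled to a fixed sum per library. In si-NC the TPM of the receptors ran from 157 ± 15.4 for Cdh2 to 0.836 ± 0.127 for Icam2 (mean ± SD, n = 3). Cdh2 was followed by Icam1 at 129 ± 9.74 TPM, Cdh11 at 63.8 ± 5.02, Ncam1 at 51.01 ± 9.34, Cd44 at 27.8 ± 0.754 and Alcam at 27.3 ± 1.29. Vcam1 was far lower at 4.95 ± 1.63 TPM, and Cd274 stood at 1.35 ± 0.0776. The si-NC libraries of Cdh11 and Ncam1 overlapped in TPM, as did those of Cd44 and Alcam, and every other pair of neighbours in this order was separated. Libraries were captured by the poly(A) tail, and any unevenness of reads along a transcript would affect levels per length. For some receptors the gene length exceeds every listed transcript, among them Icam2 (3456 bases), Cdh11 (9297) and Ncam1 (11053). Their transcript records with the most reads were 1364, 5173 and 7038 bases long. A shorter length gives a higher TPM, so the order and its gaps hold for these gene lengths only. By these TPM values Icam1 was a strongly expressed gene of the control fibroblasts, at the 92.0th percentile of the tested genes. Vcam1 lay at the 30.3rd and Icam2 at the 9.02nd.

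**Figure D1:**
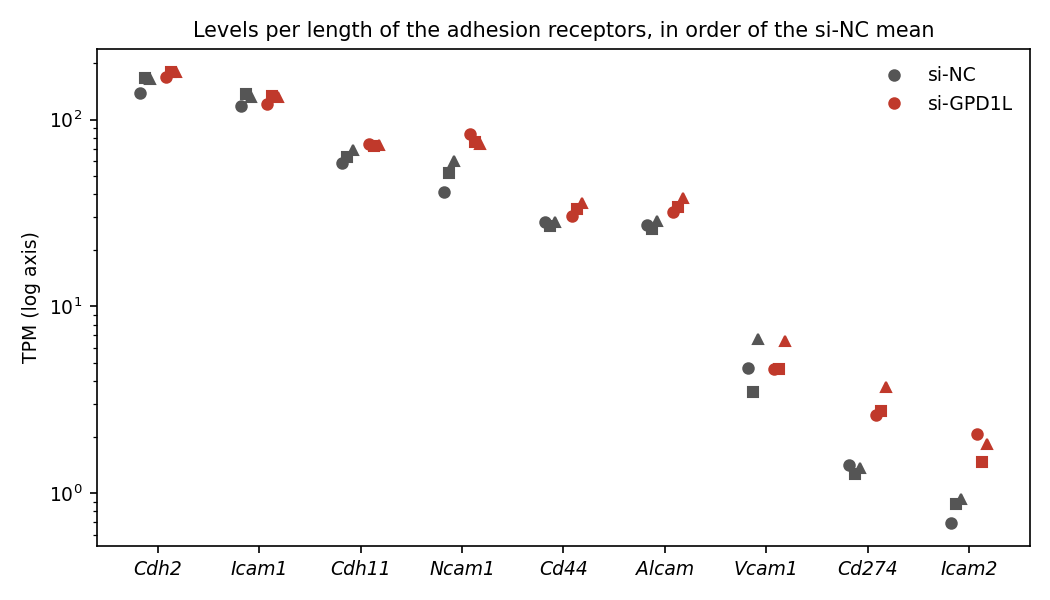
TPM of each receptor in every library on a log axis, ordered by the si-NC mean, with si-NC in grey, si-GPD1L in red, and circles, squares and triangles for replicates 1, 2 and 3. Cdh2 and Icam1 lie above 100 TPM in all libraries, and Cd274 and Icam2 show the clearest gap between the colours.

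Against si-NC, 3 of the 9 receptors rose in si-GPD1L at an adjusted p-value below 0.05 (quasi-likelihood test of edgeR, adjusted over all 14852 genes tested): Ncam1, Cd274 and Icam2. Over all genes, 6.36% were called in either direction and 4.03% were called higher. The receptors and the lists below were chosen with earlier results of these data known, so an excess over these shares is not a test of them. The rises of Cd274 and Icam2 also passed an absolute log2 fold change over 1, as did 1.62% of all genes. No receptor fell, and 5 had an unadjusted p-value under 0.05. The groups did not overlap for 5 receptors, where 29.0% of all genes had groups that did not overlap. The median log2 fold change of the 9 was 0.17, and that of all genes was -0.0049. Without si-GPD1L replicate 1 only Cd274 was called, and without si-GPD1L replicate 3 neither rise passed the fold change threshold.

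**Figure D2:**
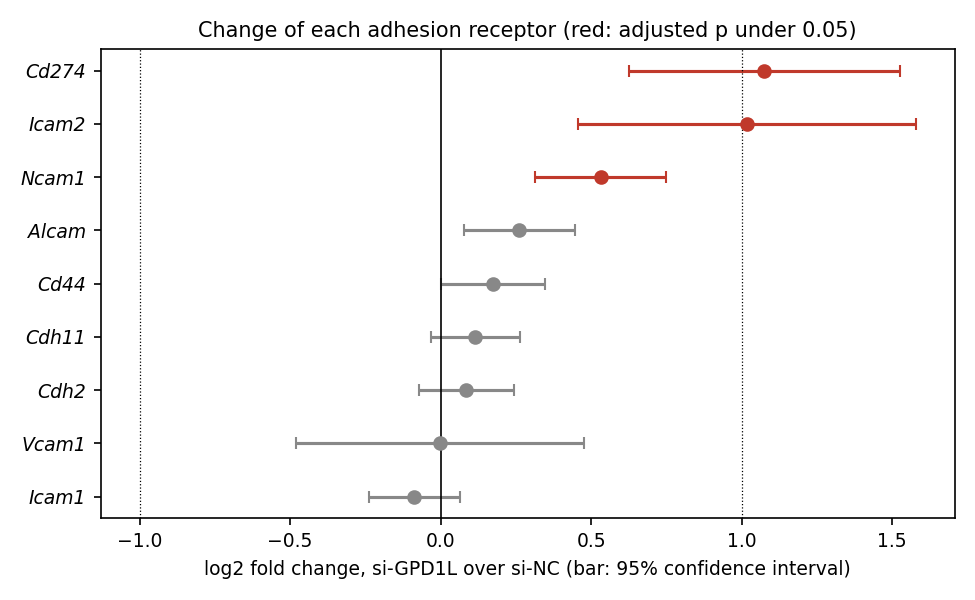
Log2 fold change of each receptor, si-GPD1L over si-NC, with its 95% confidence interval, and dotted lines at the fold change threshold. Cd274 at 1.08 and Icam2 at 1.02 lie farthest to the right, and Ncam1 follows at 0.53. The intervals of Icam1, Vcam1, Cdh2 and Cdh11 include 0.

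Among the leukocyte adhesion molecules, Icam1, whose product is bound by the leukocyte integrin LFA-1, did not change detectably. The Icam1 gene (NCBI gene 25464) lies on the plus strand of chromosome 8 from 22035287 to 22047049 in build rn6, which the submitters' processing notes name. Its normalized counts, which are counts scaled to a common library size, were 2549, 2737 and 2605 in si-NC and 2333, 2556 and 2532 in si-GPD1L. The groups overlapped, with si-GPD1L replicate 1 lowest. The log2 fold change of Icam1 was -0.088 (standard error 0.069, adjusted p = 0.491), and the 95% confidence interval of the fold, 0.847 to 1.04, lay wholly below a 2-fold rise.

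Vcam1, the ligand of the leukocyte integrin VLA-4, had few reads and a wide spread. The gene (NCBI gene 25361) runs from 219071193 to 219090931 on chromosome 2, minus strand. Its normalized counts were 116, 80.4 and 152 in si-NC and 104, 102 and 144 in si-GPD1L, so that the si-GPD1L libraries fell within the si-NC range. The log2 fold change of Vcam1 was -0.0019 (standard error 0.22, adjusted p = 0.996), with a 95% interval of the fold from 0.717 to 1.39. Its sign changed with the processing and carries no direction.

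Icam2, a second ligand of the same integrin as Icam1 and best known from endothelial cells and platelets, rose from a very low level. The gene (NCBI gene 360647) runs from 94569889 to 94581218 on chromosome 10, minus strand. The raw counts were 20, 22 and 25 in si-NC and 49, 41 and 47 in si-GPD1L, and the normalized counts were 19.8, 23.3 and 24.4 against 53.4, 37.3 and 46.9. All si-GPD1L libraries lay above all si-NC libraries. Icam2 showed a difference of 1.02 ± 0.26 on the log2 scale (± its standard error, adjusted p = 0.0370), a 2.03-fold rise with a 95% interval from 1.37 to 2.99. The call was lost in 5 of the 6 fits that left out 1 library, with adjusted p-values up to 0.167 (without si-GPD1L replicate 1). In the transcript counts 3 of the 6 Icam2 records were called, and NM_001007725.1, which held the largest share of the gene count, was not (adjusted p = 0.0517).

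Icam2 overlaps Prr29 on the opposite strand by 38 bases only, and whether the counting used strand is not stated, so reads within those bases cannot be assigned to either gene with certainty. Prr29 had raw counts of 18, 26 and 14 in si-NC and 27, 42 and 14 in si-GPD1L. Markers of endothelial cells had log2 fold changes in the direction of Icam2, though 8 of those tested were not called. Of 13 listed, 12 were tested and all 12 had a log2 fold change above 0, as did 49.1% of all genes. The median of the 12 was 0.61 (range 0.12 to 1.44). The summed normalized counts of the markers ran from 2016 to 2521 in the si-NC libraries and from 2760 to 2924 in the si-GPD1L ones. None was at 0 throughout. Much of these sums was Flt1, at a mean of 1309 and 1421, which was not called (log2 fold change 0.12). Cdh5, Pecam1 and Esam are also in lists described below and are counted again there. Those called were Plvap (log2 fold change 1.44, adjusted p = 0.000351), Cdh5, Pecam1 and Tie1, where 6.36% of all genes were called. The calls of Plvap and Cdh5 held in every fit that left out 1 library, and that of Tie1 was lost in 4 of the 6 (up to an adjusted p = 0.211 without si-GPD1L replicate 2). The part of endothelial cells in the Icam2 result was not tested, and in bulk RNA more cells of a type and more RNA per cell cannot be told apart.

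**Figure D3:**
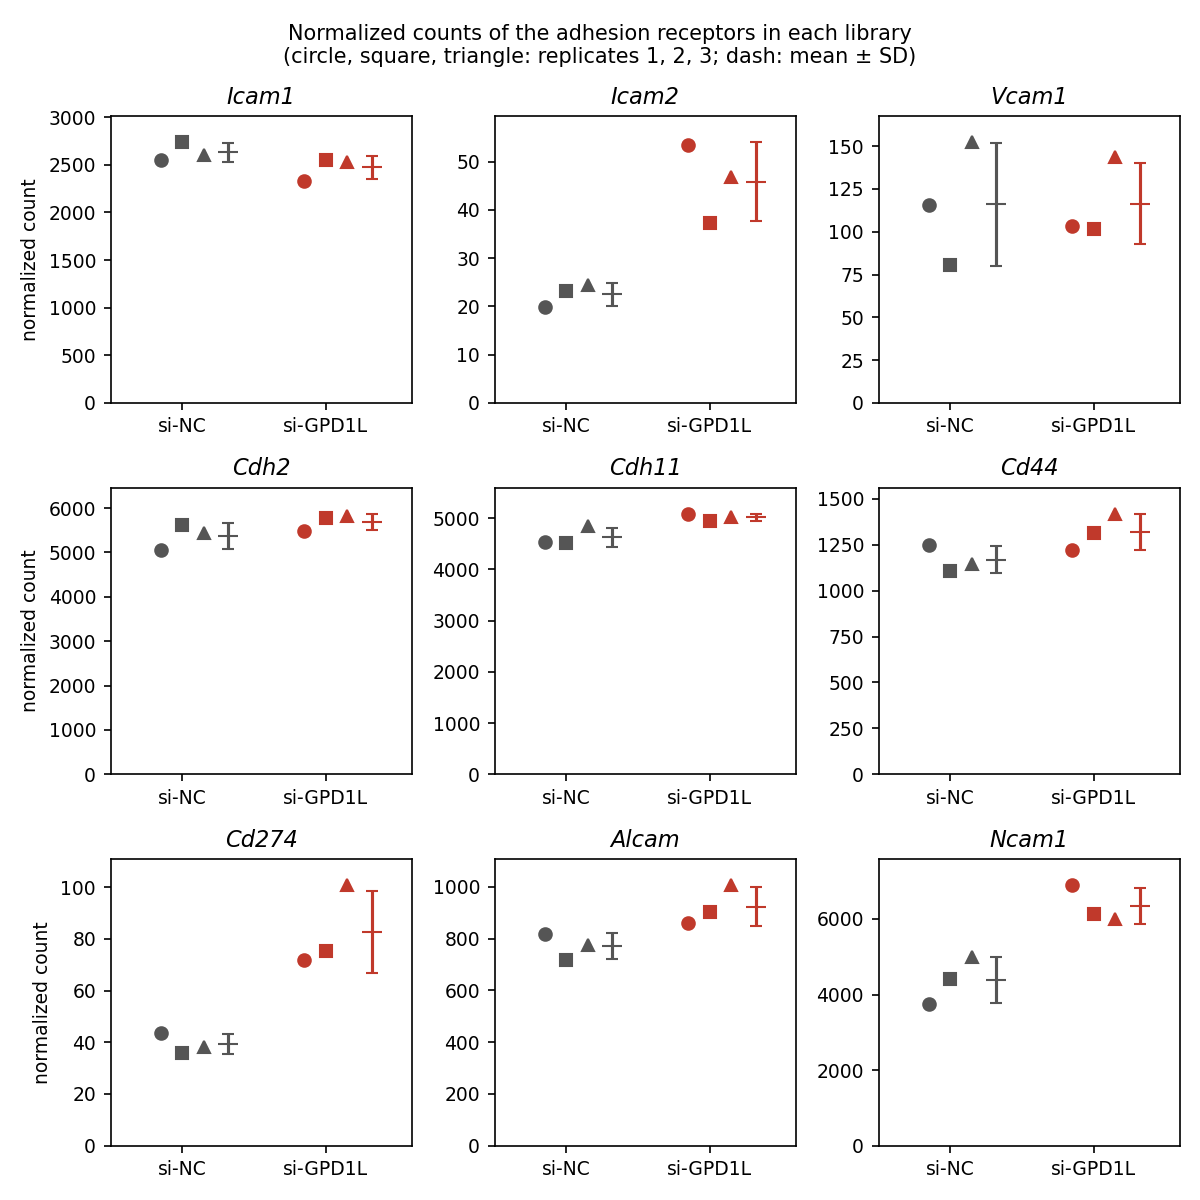
Normalized count of each receptor in every library, with a linear axis from 0, circles, squares and triangles for replicates 1, 2 and 3, and the mean ± SD beside them (n = 3). The groups are apart for Icam2, Cd274, Ncam1, Alcam and, narrowly, Cdh11, and they overlap for Icam1, Vcam1, Cdh2 and Cd44.

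Of the other molecules that leukocytes meet on the vessel wall, 13 of 16 listed were tested, and 5 rose while none fell. Of all genes, 4.03% were called higher and 2.33% lower. The median log2 fold change of this list was 0.39. Cd47, a membrane protein that restrains phagocytosis, rose from 1922 ± 99.1 to 2525 ± 61.6 normalized counts (mean ± SD of 3 libraries, log2 fold change 0.39, adjusted p = 0.00455). Cd34, a sialomucin of endothelial and stromal progenitor cells, rose from 961 ± 163 to 1465 ± 173 (log2 fold change 0.61, adjusted p = 0.00901). Pecam1, which joins endothelial cells, rose from 40.8 ± 3.94 to 76.3 ± 14.5 (log2 fold change 0.90, adjusted p = 0.0249), and P-selectin (Selp) from 15.01 ± 6.59 to 37.7 ± 6.49 (log2 fold change 1.32, adjusted p = 0.0357). Mcam rose by 0.27 on the log2 scale (adjusted p = 0.0477) and is named because it completes the count. E-selectin (Sele) had at most 8 counts in a library and was not tested. Of these 5 genes Cd47 alone stayed called in every fit that left out 1 library. Cd34 was lost without si-GPD1L replicate 3 (adjusted p = 0.0552) and Pecam1 in 3 of the 6 fits, up to an adjusted p = 0.152 without si-GPD1L replicate 2. Selp and Mcam were lost in 5 of the 6, with adjusted p-values up to 0.185 for Selp (without si-GPD1L replicate 2) and 0.236 for Mcam (without si-GPD1L replicate 1).

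The integrins that bind these ligands are leukocyte genes for the most part. Of 9 listed chains, 7 were tested and none was called, with a median log2 fold change of 0.12. Itgb1, which pairs with many chains in fibroblasts, stood at -0.076 on the log2 scale (adjusted p = 0.635), and Itgb2, the shared chain of the leukocyte integrins, at 0.12 (adjusted p = 0.675). Of the 16 macrophage and leukocyte markers none was called, and their summed normalized counts overlapped between the groups, at 3445 to 3799 against 2947 to 4235 with si-GPD1L.

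The cadherins that join mesenchymal cells showed no detectable change. N-cadherin (Cdh2, NCBI gene 83501, chromosome 18, 8146971 to 8366037, minus strand) had normalized counts of 5047, 5616 and 5437 in si-NC and 5488, 5778 and 5814 in si-GPD1L, with overlapping groups. The log2 difference was 0.085 ± 0.072 (± its standard error, adjusted p = 0.525), and the 95% interval of the fold was 0.952 to 1.18. Cadherin-11 (Cdh11, NCBI gene 84407, chromosome 19, 2391181 to 2551245, plus strand) had 4532, 4517 and 4841 normalized counts in si-NC and 5086, 4941 and 5022 in si-GPD1L. The Cdh11 groups did not overlap, but the difference was small, at 0.12 ± 0.068 log2 units (± its standard error, adjusted p = 0.345, 95% interval of the fold 0.978 to 1.20).

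Among the other cadherins and catenins, 10 of 16 listed were tested, with a median log2 fold change of 0.027. Called higher were 2, where 4.03% of all genes were called higher. VE-cadherin (Cdh5), the cadherin of endothelial junctions, rose from 76.02 ± 12.5 to 159 ± 28.3 normalized counts (1.07 on the log2 scale, adjusted p = 0.00337). The delta-catenin gene Ctnnd2 had raw counts of 2, 2 and 5 in si-NC and 11, 25 and 18 in si-GPD1L (adjusted p = 0.0115), and its call was lost without si-GPD1L replicate 2 (adjusted p = 0.0870) and without si-NC replicate 2 (adjusted p = 0.0594). Beta-catenin (Ctnnb1), which links cadherins to actin, stood at 9224 ± 339 and 9590 ± 117 normalized counts (0.056 on the log2 scale, adjusted p = 0.691). E-cadherin (Cdh1), the epithelial form, had at most 6 counts in a library and was not tested.

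Cd44, the main receptor for hyaluronan on fibroblasts, was close to the spread between libraries. The gene (NCBI gene 25406) runs from 92695083 to 92783820 on chromosome 3, minus strand. Its normalized counts were 1251, 1109 and 1147 in si-NC and 1221, 1315 and 1418 in si-GPD1L, where si-GPD1L replicate 1 lay inside the si-NC range. The log2 fold change of Cd44 was 0.17 (standard error 0.080, adjusted p = 0.222, 95% interval of the fold 1.0004 to 1.27). Without si-NC replicate 1 it was called, at 0.22 (adjusted p = 0.0401).

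The genes that make or bind hyaluronan and tie Cd44 to the cell cortex were all 17 tested, with a median log2 fold change of 0.12. Among them 3 rose while none fell, where 4.03% of all genes were called higher. Versican (Vcan), a large proteoglycan that binds hyaluronan, rose from 12016 ± 393 to 17406 ± 940 normalized counts (0.53 on the log2 scale, adjusted p = 0.000897). Ezrin (Ezr), which links Cd44 to actin, rose from 1222 ± 7.24 to 1664 ± 90.6 (log2 fold change 0.44, adjusted p = 0.00208). Hyaluronan synthase Has2 rose from 195 ± 53.3 to 319.5 ± 21.6 (log2 fold change 0.72, adjusted p = 0.0236). Vcan and Ezr stayed called in every fit that left out 1 library. Has2 lost its call in 4 of these 6 fits, with an adjusted p = 0.115 without si-GPD1L replicate 1.

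The checkpoint ligand Cd274 and Icam2 had the largest fold changes of the 9, and which of them was larger depended on the libraries included (Icam2 in 4 of the 6 fits that left out 1 library). It lies on the plus strand of chromosome 1 from 247519890 to 247539659 (NCBI gene 499342). Its raw counts were 44, 34 and 39 in si-NC and 66, 83 and 101 in si-GPD1L, and its normalized counts were 43.5, 36.0 and 38.1 against 72.0, 75.4 and 101. All si-GPD1L libraries lay above all si-NC libraries, with si-GPD1L replicate 3 highest. Cd274 showed a difference of 1.08 ± 0.21 on the log2 scale (± its standard error, adjusted p = 0.00904), a 2.11-fold rise with a 95% interval from 1.54 to 2.88. It was called in all 6 fits that left out 1 library, with adjusted p-values up to 0.0478, and fell below the fold change threshold, at 0.91, without si-GPD1L replicate 3.

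Of the other checkpoint ligands, 12 of 16 listed were tested, with a median log2 fold change of 0.097. In this list 2 rose while none fell, where 4.03% of all genes were called higher. Galectin-9 (Lgals9), a lectin that binds T-cell receptors such as Tim-3, rose from 315 ± 20.7 to 1610 ± 181 normalized counts (2.35 on the log2 scale, adjusted p = 3.64e-09). Cd200, which quiets myeloid cells, rose from 716 ± 23.4 to 1084 ± 114 (log2 fold change 0.60, adjusted p = 0.00106). The second PD-1 ligand, Pdcd1lg2, had no read in any library. Cd80, Cd86, Cd276 and Icoslg, the other B7 genes tested by name, stood at 0.32, -0.060, -0.11 and 0.28 on the log2 scale (adjusted p from 0.242 to 0.952).

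The regulators of NF-kB and interferon signalling were listed with both activators and feedback inhibitors. All 21 listed NF-kB and interferon regulators were tested, with a median log2 fold change of 0.14. Of these, 6 rose while none fell, where 4.03% of all genes were called higher. Stat2 and Irf9, which act in transcription downstream of interferon receptors, rose by 2.18 and 1.81 on the log2 scale (adjusted p = 8.77e-10 and 5.17e-09). Irf1, a direct activator of the Cd274 gene in many cells, rose from 361 ± 25.9 to 546 ± 32.7 normalized counts (0.60 on the log2 scale, adjusted p = 0.00201). Ifngr1, a chain of the interferon-gamma receptor, and Tnfaip3, which restrains NF-kB signalling, also rose, by 0.32 (adjusted p = 0.0113) and 0.56 (adjusted p = 0.0418). The call of Ifngr1 was lost in 2 of the 6 fits that left out 1 library and that of Tnfaip3 in 3, with adjusted p-values up to 0.0987 and 0.227, both without si-GPD1L replicate 2. The NF-kB subunit genes Rela, Nfkb1 and Nfkb2 stood at 0.16, 0.079 and 0.14 on the log2 scale and were not called (adjusted p = 0.215, 0.517 and 0.366). Transcript levels do not measure the activity of these factors, and any part of these genes in the level of a receptor was not tested.

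**Figure D4:**
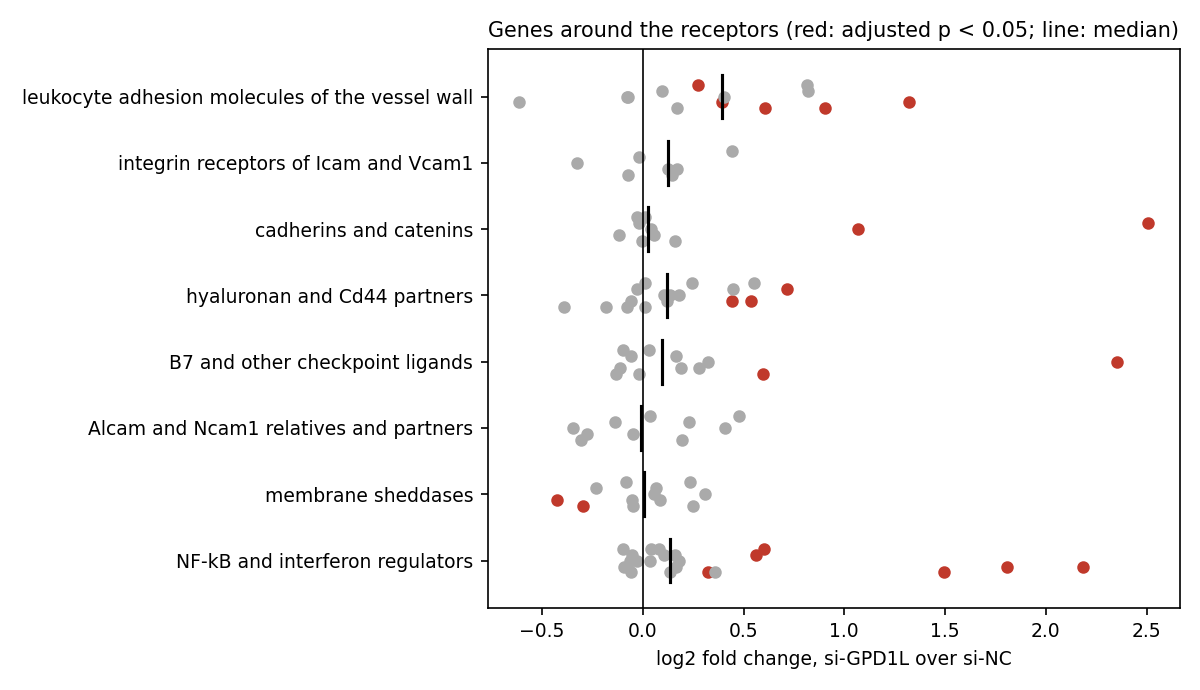
Log2 fold change, si-GPD1L over si-NC, of the tested genes in each list around the receptors, with genes at an adjusted p under 0.05 in red and the list median as a black line. The medians lie between -0.0064 and 0.39, and the points farthest to the right are Ctnnd2, Lgals9 and Stat2.

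The immunoglobulin-family molecules Alcam and Ncam1 were both higher in every si-GPD1L library, and Ncam1 was called. Alcam, which binds itself and Cd6 of T cells, lies on the plus strand of chromosome 11 from 50780735 to 50985083 (NCBI gene 79559). Its normalized counts were 818, 717 and 776 in si-NC and 860, 903 and 1006 in si-GPD1L. The log2 fold change of Alcam was 0.26 (standard error 0.085, unadjusted p = 0.00920, adjusted p = 0.0890 from edgeR), with a 95% interval of the fold from 1.06 to 1.36. Alcam was called without si-NC replicate 1, at 0.31 (adjusted p = 0.0138).

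Ncam1, a homophilic adhesion molecule of neural, muscle and mesenchymal cells, is NCBI gene 24586 and runs from 53836797 to 54134881 on chromosome 8, minus strand. Its raw counts were 3805, 4169 and 5108 in si-NC and 6323, 6759 and 6008 in si-GPD1L, and its normalized counts were 3762, 4412 and 4986 against 6894, 6143 and 5997. The groups did not overlap, with 4986 as the highest si-NC value and 5997 as the lowest si-GPD1L value. The si-NC libraries differed among themselves by more than those of si-GPD1L. Ncam1 showed a difference of 0.53 ± 0.10 on the log2 scale (± its standard error, adjusted p = 0.00785), a 1.45-fold rise with a 95% interval from 1.24 to 1.68. It was called in 5 of 6 fits that left out 1 library, and not without si-GPD1L replicate 1 (0.47 on the log2 scale, adjusted p = 0.0648).

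Ncam1 is also a gene of neurons and Schwann cells. Of 12 listed markers of those cells 9 were tested and none was called. Their median log2 fold change was -0.48, Th and Snap25 had no read in any library, and the summed normalized counts ran from 444 to 612 in the si-NC libraries and from 394 to 466 in the si-GPD1L ones. Among 14 relatives and partners of Alcam and Ncam1, 10 were tested and none was called, with a median log2 fold change of -0.0064. Fgfr1, a receptor that Ncam1 can bind, stood at 0.23 on the log2 scale (adjusted p = 0.121), and the polysialyltransferases St8sia2 and St8sia4, which modify Ncam1, stood at -0.14 (adjusted p = 0.689) and 0.48 (adjusted p = 0.446).

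Shedding enzymes that cut Cdh2, Cd44, Icam1, Vcam1 and other receptors from the surface were listed as well. All 12 were tested, with a median log2 fold change of 0.0046, and 2 fell while none rose. Of all genes, 2.33% were called lower. Psenen, a subunit of gamma-secretase, fell from 487 ± 16.0 to 363 ± 6.37 normalized counts (-0.43 on the log2 scale, adjusted p = 0.0111). Mmp14, a membrane-bound metalloproteinase, fell from 27420 ± 1422 to 22299 ± 953 (log2 fold change -0.30, adjusted p = 0.0410), a call lost in 5 of 6 fits that left out 1 library, up to an adjusted p = 0.228 without si-GPD1L replicate 2. The call of Psenen was lost without si-GPD1L replicate 1 and without replicate 2 (adjusted p = 0.0649 and 0.0651). The sheddase genes Adam10 and Adam17 were at -0.049 (adjusted p = 0.770) and 0.083 (adjusted p = 0.530) on the log2 scale.

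The deposited transcript table lists 40 transcripts of the 9 receptors, all of which were tested, and 16 were called, where 5.89% of all 37822 transcripts tested were called. The isoform counts of 1 gene sum to more than its gene count, so reads are shared and these are not independent values. All 12 Ncam1 transcripts rose, by 0.51 to 0.58 on the log2 scale (adjusted p from 0.00399 to 0.00740), and since most of them share most of their reads, these values do not tell which isoforms rose. The shortest record, NM_031521.1, held 48.8% of the Ncam1 gene count in si-NC and 50.8% in si-GPD1L, and XM_008766192.1 held 95.9% and 96.1%. For Cd274, the longer record XM_006231248.2 rose by 1.05 on the log2 scale (adjusted p = 0.0113), and the shorter NM_001191954.1, with raw counts of 3, 12 and 12 in si-NC and 10, 19 and 32 in si-GPD1L, had a log2 fold change of 1.12 (adjusted p = 0.217). Of 6 Icam2 transcripts 3 were called, with log2 fold changes from 0.96 to 1.05 over all 6. None of the 9 Cd44, 5 Cdh11 or 3 Alcam transcripts was called, nor were the single transcripts of Icam1, Vcam1 and Cdh2. Without si-GPD1L replicate 1 the number of called transcripts was 4, and without si-NC replicate 1 it was 25.

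For each receptor the gene with the most similar pattern over the 6 libraries was sought among 11031 genes. These had an official-looking symbol and an average normalized count of 50 or more. The smallest root-mean-square distance between log2 values centred on the si-NC mean was taken. This distance keeps the difference between the groups, so the nearest gene has a similar fold change by construction. How small a distance arises among unrelated genes was not tested. The nearest to Cd274 was Cnksr1, at a distance of 0.061, which had a log2 fold change of 1.01 (adjusted p = 0.00910). Icam2 was nearest to Notch4, a Notch receptor of endothelial cells, at 0.13, with a log2 fold change of 1.09 for Notch4 (adjusted p = 0.00526). Ncam1 was nearest to the membrane-bound chemokine gene Cx3cl1, at 0.022, with a log2 fold change of 0.51 (adjusted p = 0.0128, and up to 0.0964 without si-GPD1L replicate 1). The nearest genes to the others were Mapk14 for Icam1, Ppargc1a for Vcam1, Sept9 for Cdh2, Mta2 for Cdh11, Cyp4f6 for Cd44 and Cdc6 for Alcam, at distances of 0.015 to 0.12. None of these 6 was called.

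**Figure D5:**
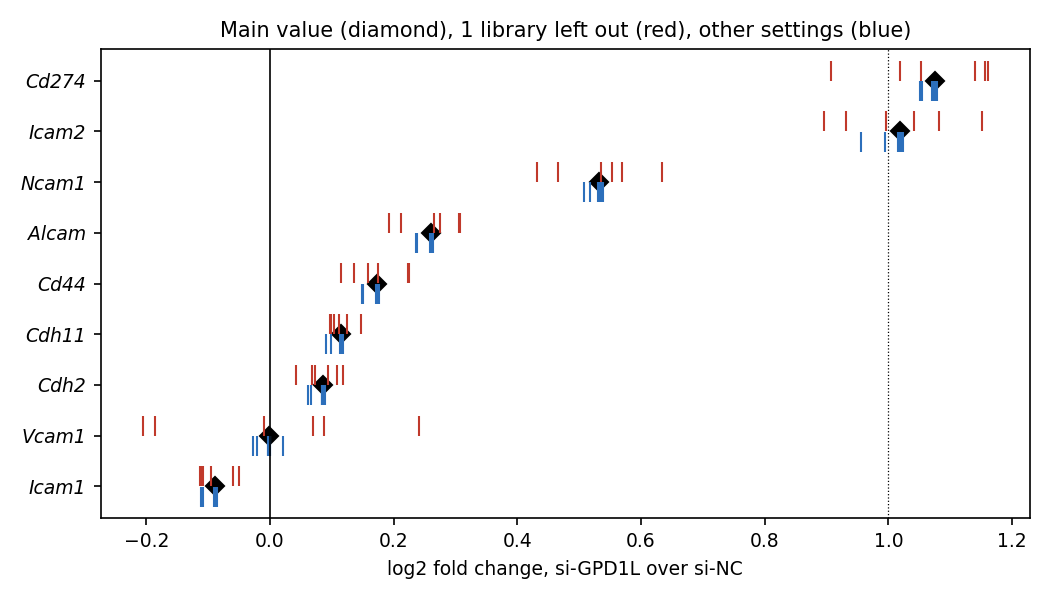
Log2 fold change of each receptor, si-GPD1L over si-NC, as reported (diamond), with 1 library left out (red) and under the other settings (blue), with a dotted line at the fold change threshold. Cd274 and Icam2 spread across that line, Ncam1 lies between 0.43 and 0.63, and Vcam1 lies on both sides of 0.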

How the data were processed

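mRNA libraries of rat atrial fibroblasts, 3 si-NC and 3 si-GPD1L, were sequenced by the authors as paired-end reads of 150 bases. The authors deposited read counts per gene and per transcript, without normalization, and TPM values per gene. The submitters' processing notes name bcl2fastq, HISAT2 2.1.0, HTSeq 0.12.4 and build rn6, with no roles given, and whether counting used strand is not given in the sources used here. Samples were grouped by their titles. The authors' own comparison and enrichment tables (fold changes, p-values, adjusted values and term counts) were not used.

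Of 40154 genes, 14852 passed edgeR's filterByExpr. They were normalized by TMM and compared in R 4.3.3 with edgeR 4.0.16 (quasi-likelihood F test, Benjamini-Hochberg adjustment over all genes). A called gene has an adjusted p-value under 0.05, and the study's second threshold is an absolute log2 fold change over 1. Adjusted p-values in the report are from this test. The standard error is the log2 fold change divided by the square root of F. Transcripts were fitted the same way. Counting intervals and floors cover counting error only, and each library's total of 16892255 to 20149732 counts limits the precision for Icam2, Cd274 and Vcam1 most. The test was first checked on simulated counts.

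Named were all members, Gpd1l, up to 4 called genes per list with the smallest adjusted p, the nearest gene by pattern (pseudocount 1), and genes that define a list's cell or pathway. These last, among the uncalled genes, were chosen after their values were seen. The members and lists were chosen with earlier results of these data known. The values of 1 gene in the list of NF-kB and interferon regulators are not reported here. Pvr was not found under its listed name, and Cemip2 was matched as Tmem2. Alternatives were DESeq2's size factors, upper-quartile normalization, DESeq2's Wald test (version 1.42.0), edgeR's exact test, other filters, a replicate block and leaving out each library. Figures were drawn with matplotlib 3.10.9.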

Additional observations from a re-analysis of the deposited data

How the results depend on the processing

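Over 126 recomputed values of the 9 receptors, 110 kept their direction and their side of the adjusted p threshold, 8 lost the call (7 of Icam2 and 1 of Ncam1), 2 gained it (Alcam and Cd44, both without si-NC replicate 1) and 6 changed sign, all of Vcam1. Called receptors numbered 1 to 4, and those past both thresholds 0 to 2, when 1 library was left out. The log2 fold change then ran from 0.90 to 1.15 for Icam2, from 0.43 to 0.63 for Ncam1, from 0.19 to 0.31 for Alcam, from 0.12 to 0.22 for Cd44 and from -0.21 to 0.24 for Vcam1, whose sign reversed without si-GPD1L replicate 1 (0.069), without si-GPD1L replicate 2 (0.088) and without si-NC replicate 3 (0.24). Vcam1 was also above 0 with at least 10 counts in every library (0.00068), with the exact test (0.00019) and with the replicate block (0.021). Ppargc1a, the gene nearest to Vcam1, ran from -0.27 to 0.18 and turned positive without si-NC replicate 3. In the transcript counts the Icam2 record NM_001007725.1 stood at 0.96 on the log2 scale and missed the threshold (adjusted p = 0.0517). With upper-quartile normalization 1 receptor was past both thresholds. The causes were not tested.

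Deviations from the group means were hardly correlated between same-numbered libraries (correlations 0.040, -0.0036 and 0.047). With 3 libraries per group this cannot decide whether a number also marks a shared culture or batch. With the replicate number as a block, 1 receptor was past both thresholds, and Icam2 stood at 1.02 with an adjusted p = 0.0561. Mcam and Tnfaip3 also missed the threshold with the block (adjusted p = 0.0599 and 0.0616), and Mcam with upper-quartile normalization (adjusted p = 0.0645). Genes called over the whole table numbered 945, against 1528 with the exact test, 1929 with no filter beyond 1 count, and 361 to 1531 with 1 library left out. Called genes of the pathway lists numbered 20, and 11 to 23 with 1 library left out, and called transcripts of the receptors numbered 16, and 4 to 25.
Of those 20 list genes 10 were called in every such fit.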
